A study of Mus musculus with 6 samples.

Results

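Matricellular proteins are secreted into the extracellular matrix, where they change how cells hold on to it rather than build its scaffold. Measured here were 10 genes of 41128 features, chosen by name: Tnc, Vcan, Tgfbi, Sparc, Fn1, Postn, Thbs1, Thbs2, Ctgf and Cyr61. Fn1 and Vcan encode structural matrix proteins that matricellular proteins bind, and were included with them. The members were proposed with the difference between the groups already known, and with the weight of 1 knockout library in it, so their differences are given as descriptions without a p-value.

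RNA sequencing was done on mouse lenses at E13.5 (embryonic day), in 3 libraries of a Prox1 conditional knockout and 3 of wild type lenses. The knockout was homozygous for a floxed Prox1 allele and carried the transgene MLR10Cre, a Cre recombinase under an alphaA-crystallin promoter with a Pax6 binding site, active in lens epithelium and fibres (genotype Prox1 f/f MLR10Cre+). Both groups are labelled as strain C57Bl/6, and each library is a biological replicate from a pool of 30 lenses. No group with the Cre transgene or the floxed allele alone was analysed here, so their effects cannot be told apart from that of Prox1 loss. The sources used here do not say whether pools shared litters, so the spread between libraries is that between these pools.

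Tenascin C, encoded by Tnc, is a large glycoprotein that appears where tissues are being shaped or repaired and loosens the hold of cells on fibronectin. Versican (Vcan) is a proteoglycan that binds hyaluronan, and fibronectin (Fn1) is the fibre-forming ligand of integrins, the receptors that tie cells to matrix. Periostin (Postn) and the TGF-beta-induced protein (Tgfbi) are related, both being built of fasciclin domains. SPARC binds collagen and is a known product of lens epithelium, the thrombospondins (Thbs1, Thbs2) bind growth factors and matrix, and the CCN proteins Ctgf and Cyr61 (now Ccn2 and Ccn1) are products of cells under mechanical load.

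Totals lay between 9082219 counts in knockout library 3 and 28391662 in knockout library 1, with 20731491 to 21061582 in the wild type libraries. Prox1 itself was at 650, 727 and 707 CPM in knockout libraries 1, 2 and 3, against 922, 1214 and 1245 CPM for wild type lenses, with values here and after in the order of libraries 1, 2 and 3. The labels do not say which exon is floxed, so a count of the whole gene does not measure the deletion. CPM values are counts scaled to a library size of 1e+06 and by TMM, which corrects for a few abundant genes filling a library, unless named as deposited. Lens genes were present in every library. The summed level of 10 lens markers was 20153 to 22291 CPM in the knockout, against 86062 to 157969 CPM for wild type, and wild type library 1 was the lowest of its group. The edgeR quasi-likelihood fit of the knockout against the wild type tested 14271 features and called 32.6% of them at a Benjamini-Hochberg adjusted p of 0.05, with 15.9% higher and 16.8% lower. Of the 10 lens markers, which include Prox1, that fit called 8 lower and 2 higher, so the sum does not stand for every marker. It called 7 lower and 1 higher without wild type library 2 or without wild type library 3. Scaling by library totals alone called 38.0% of all features higher and 6.62% lower.

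All 10 members had enough counts to be tested. By that fit 6 of them were called higher (Tnc, Vcan, Postn, Tgfbi, Thbs2 and Thbs1), 1 was called lower (Ctgf), and Fn1, Cyr61 and Sparc were not called. The share of all features called stands above, and nothing is read from the members' count against it because the members were chosen on this contrast. Their median log2 change, knockout minus wild type, was 1.24, beside 0.04 over all features tested. The knockout libraries lay wholly above the wild type libraries for 5 members and wholly below for 1, where 24.4% and 25.7% of all features tested did so. Without knockout library 3 the edgeR fit called 4 members higher (Tnc, Vcan, Tgfbi and Thbs1) and Ctgf lower, with 11.9% of all features called higher and 14.2% lower. Without wild type library 2 it called 3 members higher and 0 lower, beside 5.72% and 9.80% of all features, and without wild type library 3 it called 2 higher and 0 lower, beside 6.53% and 10.5%.

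**Figure D1:**
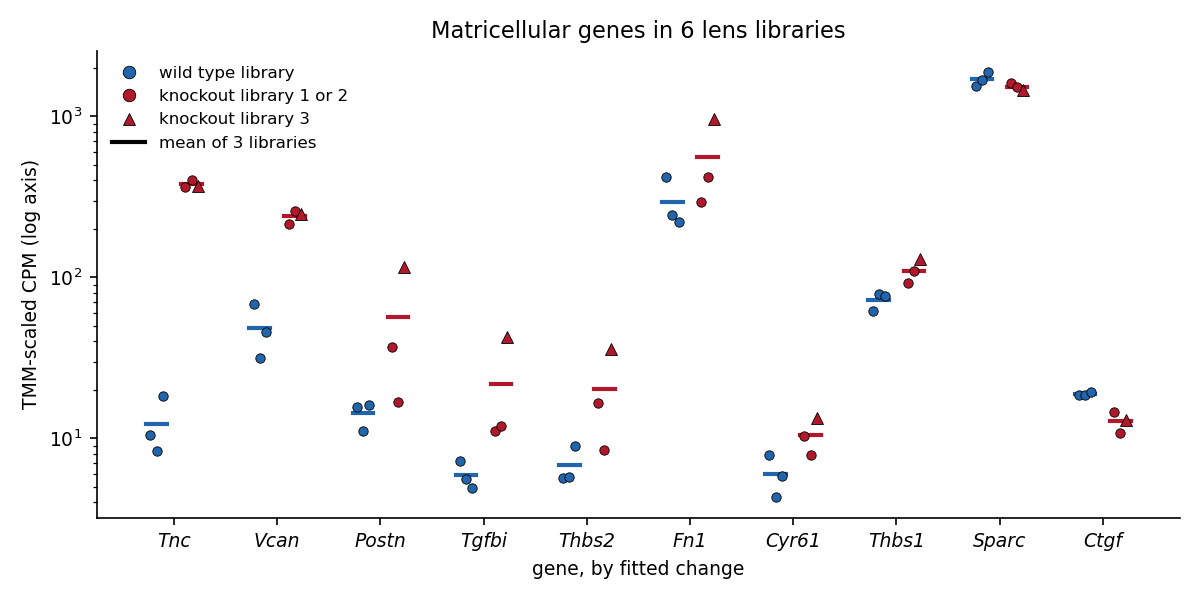
TMM-scaled CPM of each matricellular gene (log axis) in 3 wild type libraries (blue) and 3 knockout libraries (red, with library 3 as a triangle), with group means as bars. For Tnc and Vcan the 3 knockout libraries sit together far above the wild type, while for Postn, Tgfbi, Thbs2 and Fn1 the triangle stands apart from the other 2 knockout libraries.

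Tnc had the largest difference of the members. It was at 366, 404 and 368 CPM in knockout libraries 1, 2 and 3, against 10.5, 8.35 and 18.2 CPM in wild type libraries 1, 2 and 3. Every knockout library was thus far above every wild type library, and knockout library 3 was not the highest. The fitted difference was 30.8-fold (log2 4.94, SE 0.272), and 31.3-fold (log2 4.97, SE 0.287) without knockout library 3. The wild type values spread more than the knockout values, with a coefficient of variation of 42.1% against 5.62%, and rested on 146 to 317 counts. Tnc lies on GRCm38 chromosome 4, 63959785 to 64047015, minus strand, with 27 exon blocks in GENCODE M21. The noncoding gene 8030451A03Rik on the opposite strand shares 176 exon bases with it, 2.27% of the exon bases of Tnc. Its counts were 133, 48 and 27 in the knockout and 5, 4 and 1 in wild type lenses, so it too was counted more in the knockout. The libraries keep no strand, so reads of the shared bases could belong to either gene.

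Vcan, which encodes versican (chromosome 13, 89655312 to 89742509, minus strand), was called higher next to Tnc and, like it, had about the same fold with and without knockout library 3. Its level was 215, 259 and 246 CPM in the knockout libraries, against 68.2, 31.4 and 46.0 CPM for wild type lenses. The lowest knockout value was above the highest wild type value, which was that of wild type library 1. The fitted difference was 4.93-fold (log2 2.30, SE 0.248), and 4.87-fold without knockout library 3. Both genes were called higher whichever single library was left out, with a log2 change of 4.70 to 5.31 for Tnc and 2.04 to 2.59 for Vcan.

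The 250 bases before the start of transcription are shown for the members whose differences took these distinct forms: Tnc and Vcan, Postn with the strongest weight of knockout library 3, and Cyr61 of the CCN pair. They are RefSeq promoter windows of GRCm38.p6, each written 5′ to 3′ on the gene's own strand, and capitals mark matches to the motifs listed after them. Neighbouring matches run together in capitals.
Tnc, chr4:64047016-64047265, minus strand: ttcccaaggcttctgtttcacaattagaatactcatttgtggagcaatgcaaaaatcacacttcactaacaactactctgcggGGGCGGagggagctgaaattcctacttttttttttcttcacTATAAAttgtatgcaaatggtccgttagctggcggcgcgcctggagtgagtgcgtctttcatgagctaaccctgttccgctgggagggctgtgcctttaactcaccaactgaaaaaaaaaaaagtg
Vcan, chr13:89742513-89742762, minus strand: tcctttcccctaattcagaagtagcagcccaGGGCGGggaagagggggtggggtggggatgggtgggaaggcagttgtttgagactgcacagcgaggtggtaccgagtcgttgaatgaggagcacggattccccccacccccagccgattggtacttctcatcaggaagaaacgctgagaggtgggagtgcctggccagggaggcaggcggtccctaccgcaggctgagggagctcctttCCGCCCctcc
Postn, chr3:54360857-54361106, plus strand: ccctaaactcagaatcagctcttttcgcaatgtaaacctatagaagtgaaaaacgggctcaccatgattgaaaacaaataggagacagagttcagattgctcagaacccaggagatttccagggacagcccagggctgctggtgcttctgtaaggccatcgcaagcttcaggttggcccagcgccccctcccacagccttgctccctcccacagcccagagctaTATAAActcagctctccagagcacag
Cyr61, chr3:145649986-145650235, minus strand: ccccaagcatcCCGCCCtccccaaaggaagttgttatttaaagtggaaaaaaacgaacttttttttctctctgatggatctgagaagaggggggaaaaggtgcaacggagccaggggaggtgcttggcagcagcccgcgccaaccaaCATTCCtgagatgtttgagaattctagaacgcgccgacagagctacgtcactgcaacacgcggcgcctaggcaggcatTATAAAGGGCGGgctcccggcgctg

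The motifs searched on both strands were the TATA box (TATAAA), the GC box (GGGCGG), the TEAD element (GGAATG), the AP-1 element (TGANTCA) and the CArG box. Of all 32851 windows of this length, 12.4% hold the TATA letters, 32.7% the GC box, 12.6% the TEAD letters, 6.75% the AP-1 letters and 1.47% a CArG box. Postn and Cyr61 each have TATAAA just before the start, from base -26 to -21 and from base -25 to -20, counted back from the first transcribed base. In the printed window of Tnc the same letters lie farther away, from -126 to -121, with a GC box from -167 to -162. Vcan holds 2 GC boxes and no TATAAA. Only Cyr61 of the 4 printed windows holds the TEAD letters, on the other strand as CATTCC from -103 to -98, and none of the 4 holds an AP-1 match or a CArG box. These matches describe letters and not bound sites. Windows were found for 7 of the 10 members, and Fn1, Thbs1 and Ctgf had none in the table. Tnc and Postn have a further window each at another start, so their distances hold for the printed windows only. In the further Tnc window TATAAA lies from -205 to -200 and the GC box from -246 to -241. That window also holds the letters TATATAA shortly before its start, which the exact search did not count. The further Postn window holds no match.

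Postn, Tgfbi, Thbs2 and Fn1 were high above all in knockout library 3. Postn was at 37.0, 16.9 and 116 CPM in knockout libraries 1, 2 and 3, against 15.7, 11.1 and 16.1 CPM for wild type lenses. Knockout library 2 was thus close to the wild type, and knockout library 3 was 4.31 times the mean of the other knockout libraries. Among all features tested the median of that ratio was 0.989 and its 95th percentile 1.91, and Postn stood at percentile 99.4. The fitted difference of Postn was 3.91-fold (log2 1.97, SE 0.589) and fell to 1.91-fold (log2 0.94, SE 0.309) without knockout library 3, where the gene was no longer called. Its call also ended without any 1 of the wild type libraries, with a log2 change between 1.79 and 2.04.

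Tgfbi, the other fasciclin gene, was at 11.1, 12.0 and 42.6 CPM in the knockout libraries, against 7.29, 5.61 and 4.89 CPM for wild type lenses. Knockout libraries 1 and 2 were close to each other and both above the wild type, and library 3 was 3.69 times their mean (percentile 99.2). The fitted difference was 3.61-fold (log2 1.85, SE 0.504) with all libraries and 1.94-fold (log2 0.96, SE 0.207) without knockout library 3, where Tgfbi was still called. Its call ended without wild type library 2, without wild type library 3 and in the fit with the replicate number as a block. The SE was smaller without knockout library 3, since the remaining knockout values were close.

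Thbs2 was at 16.6, 8.51 and 35.7 CPM in the knockout libraries, against 5.65, 5.78 and 8.97 CPM for wild type lenses. The groups overlapped, with knockout library 2 below wild type library 3. Its difference was 2.95-fold (log2 1.56, SE 0.458), and 1.89-fold without knockout library 3, where it was not called. The call of Thbs2 also ended without any 1 of the wild type libraries.

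Fn1 was at 294, 417 and 957 CPM in the knockout libraries, against 417, 246 and 220 CPM for wild type lenses. Wild type library 1 was level with knockout library 2 and exceeded knockout library 1, so the groups overlapped. The log2 change was 0.92 (SE 0.419) with all libraries, 0.27 (SE 0.278) when knockout library 3 was left out and 1.21 when wild type library 1 was. Fn1 was called in 1 of the 6 fits that left out 1 library, the one without knockout library 1. With limma-voom, which called 15.6% of all features higher and 16.7% lower, Tgfbi, Postn and Thbs2 were not called either. Tnc, Vcan, Thbs1 and Cyr61 were called higher by it and Ctgf lower.

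**Figure D2:**
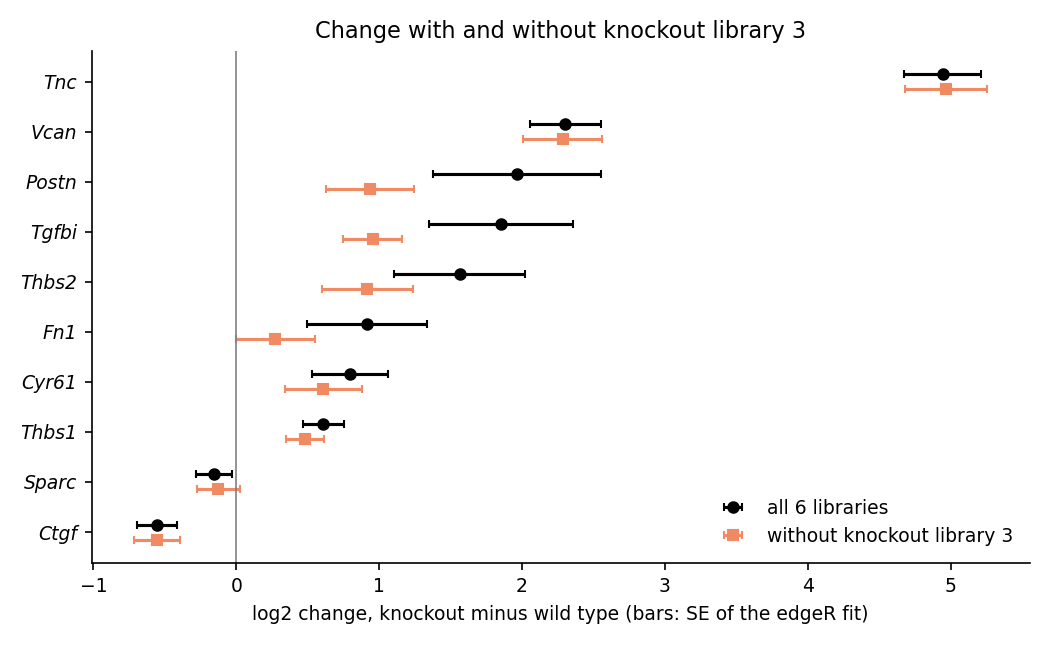
Log2 change (knockout minus wild type) of each matricellular gene with its SE, from all 6 libraries (black) and without knockout library 3 (orange). Tnc (4.94 and 4.97) and Vcan (2.30 and 2.28) barely move, while Postn goes from 1.97 to 0.94, Tgfbi from 1.85 to 0.96 and Fn1 from 0.92 to 0.27.

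Markers of other tissues were high in the same library. The summed level of 15 markers of periocular mesenchyme and fibroblasts was 1248, 866 and 3717 CPM in knockout libraries 1, 2 and 3, against 693, 341 and 613 CPM for wild type lenses, so knockout library 3 held 3.52 times the mean of the other 2. Of these 15, 12 were tested, 5 were called higher and 0 lower, and Foxc2 had no count in any library. Without knockout library 3, 1 of the 12 was called higher. There were 2 of 14 without wild type library 3 and 0 of 14 without wild type library 2. Of all features, 11.9%, 6.53% and 5.72% were called higher in these fits. Without wild type library 2, 7 markers were higher at an unadjusted edgeR p below 0.05, beside 2143 of 14603 features. The list had 7 called higher without knockout library 1, knockout library 2 or wild type library 1. Pigment cell markers (8 genes) summed to 382, 280 and 767 CPM in the knockout, against 90.1 to 205 CPM for wild type. Surface ectoderm markers (8 genes) summed to 80.1, 46.2 and 150 CPM in the knockout, against 24.0 to 38.1 CPM for wild type. Both of these lists had 6 members called higher and 0 lower with all libraries. Without knockout library 3 the pigment list had 5 called higher and 1 lower. The pigment list had 3 called higher without wild type library 2 or 3. The ectoderm list had 3 without knockout library 3 or wild type library 3 and 2 without wild type library 2. Of the pigment and ectoderm sums, knockout library 3 held 2.32 and 2.37 times the mean of the other knockout libraries. The sums of mesenchyme, pigment and surface ectoderm markers were higher in every knockout library than in any wild type library.

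Other marker lists did not stand out in knockout library 3. Its ratio to the other knockout libraries was 1.16 for 11 markers of vessel endothelium and pericytes, 1.11 for 10 macrophage markers, 1.03 for 10 erythroid and platelet markers and 0.796 for 10 neural retina markers. Vessel sums were 519 to 684 CPM in the knockout, against 323 to 541 CPM for wild type, with 3 of 11 called higher. Retina sums were 413 to 619 CPM and 282 to 410 CPM, with 2 of 10 called higher. Macrophage sums were 88.1 to 121 CPM and 49.4 to 105 CPM, with 0 called by edgeR in either direction, 1 at an unadjusted p below 0.05, and 0 called by limma-voom. Of all 14271 features, 3279 were higher and 3185 lower at an unadjusted edgeR p below 0.05. Erythroid sums were 1343 to 2121 CPM and 746 to 2361 CPM, with 3 of 10 called higher. These 4 counts moved with single libraries. So did the shares of all features called, which were 15.9% higher and 16.8% lower with all libraries. They were 16.4% and 20.0% without wild type library 1, 14.7% and 16.3% without knockout library 1, and 10.9% and 12.2% without knockout library 2. Those without the other libraries stand above. Without wild type library 1, 9 vessel, 4 macrophage and 4 retina markers were called higher. Without wild type library 3 none of the 4 lists had a call by edgeR, although 2 vessel, 2 retina and 2 erythroid markers had an unadjusted p below 0.05. In that fit 2339 of 14574 features were higher and 2696 lower at the same unadjusted threshold. Vessel calls were 2 without knockout library 1, and 1 without knockout library 2, knockout library 3 or wild type library 2. Retina calls were 0 without knockout library 1 or wild type library 2, and erythroid calls were 2 without knockout library 1 or wild type library 1, 1 without knockout library 3 or wild type library 2 and 0 without knockout library 2. None of these 4 lists had a member called lower with all libraries, and each had at least 1 count for every marker. The part of these tissues in the members' differences was not tested. In pooled lenses, more cells of a type and more RNA per cell cannot be told apart.

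**Figure D3:**
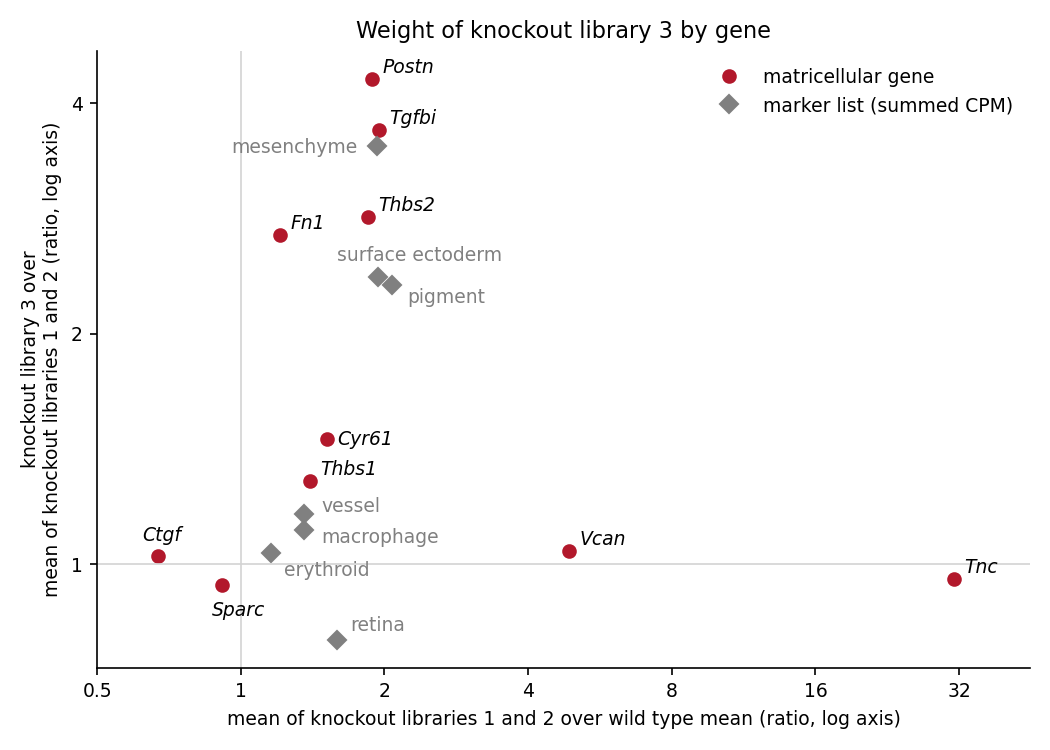
Each point sets the mean of knockout libraries 1 and 2 over the wild type mean (x, ratio on a log axis) against knockout library 3 over the mean of knockout libraries 1 and 2 (y, ratio on a log axis), for the 10 genes (red) and the summed CPM of 7 marker lists (grey). Tnc (31.2 and 0.955) and Vcan (4.88 and 1.04) lie far to the right at a y ratio near 1, whereas Postn (4.31 on y), Tgfbi (3.69), Thbs2 (2.84) and Fn1 (2.69) lie high, where the mesenchyme list (3.52) also lies.

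The thrombospondin and CCN genes had smaller differences. Thbs1 was at 92.4, 109 and 129 CPM in the knockout libraries, against 61.9, 78.3 and 76.3 CPM for wild type lenses. The groups did not overlap, and the difference was 1.52-fold (log2 0.61, SE 0.144), or 1.40-fold without knockout library 3. It was called in 5 of the 6 fits without 1 library, the exception being the fit without wild type library 3. Ctgf was the 1 member called lower, at 14.5, 10.8 and 13.0 CPM in the knockout, against 18.6, 18.5 and 19.4 CPM for wild type. All knockout libraries were below all wild type libraries, which lay within a coefficient of variation of 2.64%. Ctgf was 1.47-fold lower in the knockout (log2 -0.55, SE 0.141), with a call that held in 3 of the 6 fits without 1 library and ended without knockout library 2, wild type library 2 or wild type library 3. The noncoding gene Gm15270, read the other way, shares 23.2% of the exon bases of Ctgf. Gm15270 had 6, 4 and 6 raw counts in the knockout and 13, 16 and 13 in wild type lenses. Knockout libraries 2 and 3 were shallower than the wild type libraries. As the libraries keep no strand, reads of the shared bases could belong to either gene.

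Cyr61, the close relative of Ctgf, was higher on average and sat at the threshold of the call. It was at 10.4, 7.84 and 13.3 CPM in the knockout, against 7.91, 4.35 and 5.81 CPM for wild type, a log2 change of 0.79 (SE 0.267) that was just short of a call. It was called higher in 10 of 14 alternative fits, among them DESeq2, limma-voom, every other scaling, both other filters and the replicate block. The groups met, as knockout library 2 fell just under wild type library 1. With 76 to 354 counts per library, counting alone gives a coefficient of variation of up to 11.5% for this gene.

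Sparc was by far the most abundant member and differed little. It was at 1599, 1516 and 1462 CPM in the knockout libraries, against 1533, 1685 and 1885 CPM for wild type lenses, so the groups overlapped. Its log2 change was -0.16 (SE 0.125) and between -0.27 and -0.10 without 1 library. The sign depends on the scaling. In the deposited CPM, which divides by the library total alone, Sparc was at 1917, 1665 and 1597 CPM in the knockout, against 1509, 1421 and 1574 CPM for wild type. Every knockout library was then above every wild type library, with a log2 change of 0.20 that was not called. That scaling raised the median log2 change of all features tested from 0.04 to 0.39, so Sparc lay below the median feature on both scales. On the deposited CPM 8 members lay wholly above the wild type and 0 wholly below, beside 46.8% and 9.52% of all features tested, and Ctgf overlapped with a log2 change of -0.20 that was not called.

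Levels of different genes were compared per length with the deposited RPKM, which divides CPM by 1 length per gene. In the wild type, Sparc was at 446 ± 22.9 RPKM (SD, n = 3), followed by Fn1 at 22.9 ± 10.7, Thbs1 at 10.5 ± 0.426 and Ctgf at 5.85 ± 0.495 RPKM. Each of these was apart from its neighbour in all 3 libraries. Below them came Vcan at 3.04 ± 1.45, Cyr61 at 2.68 ± 1.05, Tgfbi at 1.99 ± 0.608, Postn at 1.63 ± 0.397, Tnc at 1.40 ± 0.530 and Thbs2 at 1.01 ± 0.230 RPKM. The values of neighbours among these 6 overlapped between libraries, so their order is not fully resolved. Within each of the 3 wild type libraries Vcan was above Cyr61, Cyr61 above Tgfbi, and Tnc above Thbs2. Tgfbi was above Postn, and Postn above Tnc, in 2 of the 3. Tnc, with the largest difference between groups, was thus among the lowest of the 10 in wild type lenses.

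In the knockout Tnc stood next to Fn1. It was at 55.1 ± 2.97 RPKM, beside 53.0 ± 32.0 for Fn1, whose 3 values spanned those of Tnc. Sparc was again the highest at 513 ± 50.1 RPKM. Thbs1 (20.4 ± 2.57) and Vcan (18.7 ± 0.920) overlapped, and every Fn1 value was above every Thbs1 value. The lowest Vcan value was narrowly above the highest of Tgfbi (17.8 against 17.4 RPKM). From Tgfbi down through Postn, Cyr61, Ctgf and Thbs2, neighbours overlapped. Of the summed RPKM of the 10 genes, Tnc made up 0.279 ± 0.0960% in the wild type and 7.99 ± 0.774% in the knockout, and Sparc 89.8 ± 2.44% and 74.2 ± 6.50%. Without Sparc the sum was 149, 153 and 235 RPKM in knockout libraries 1, 2 and 3 and 67.0, 42.4 and 43.4 RPKM in the wild type libraries. The deposited RPKM used the exon length that GENCODE M21 gives for Tnc, Vcan, Fn1, Thbs1 and Ctgf (7772 bases for Tnc), and another length for the other 5 genes. A length from GENCODE M21 in its place exchanged Tgfbi and Postn in the wild type order and no other pair.

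**Figure D4:**
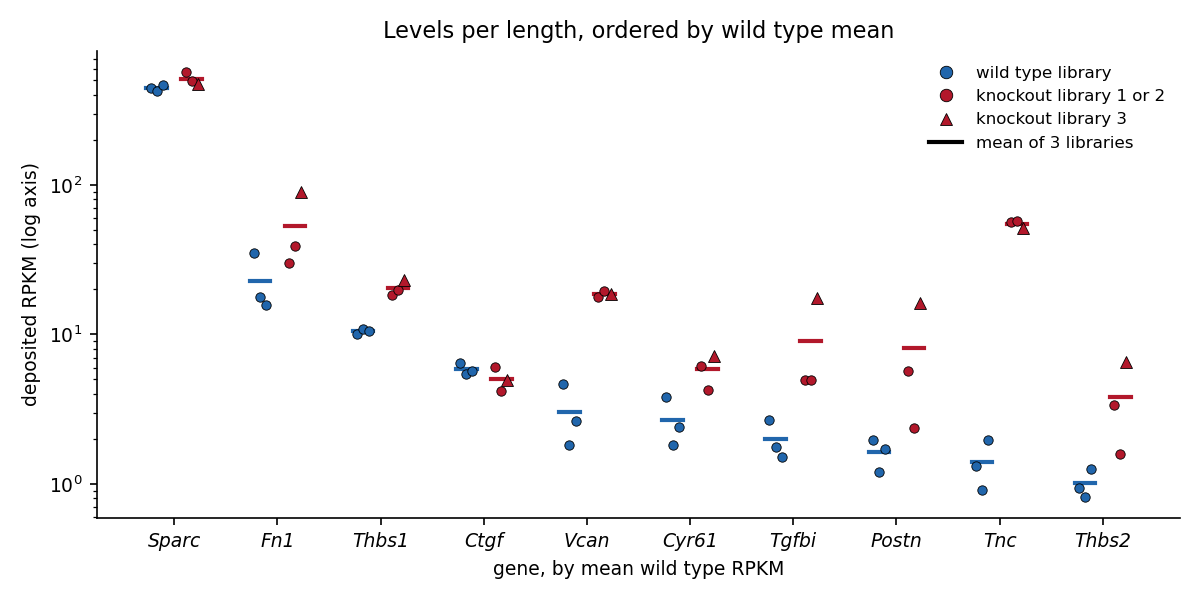
Deposited RPKM of each gene (log axis), ordered by the wild type mean, in wild type (blue) and knockout (red, library 3 as a triangle) libraries, with group means as bars. In the wild type Sparc stands at 446 RPKM and Tnc at 1.40 RPKM, and in the knockout Tnc reaches 55.1 RPKM, next to Fn1.

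The 5 genes outside the members whose log2 profile over the 6 libraries lay nearest to that of Tnc were Hpse, Syt6, Pde11a, Sox21 and Rgs6. The distance is the root mean square difference of log2 CPM centred over both groups together. The distance was 0.325 for Hpse, which encodes heparanase, the enzyme that cuts heparan sulfate chains of the matrix. Hpse was at 37.7, 40.4 and 29.8 CPM in the knockout, against 1.06, 1.32 and 1.61 CPM for wild type. Distances were 0.371 for Syt6 (a synaptotagmin), 0.444 for Pde11a (a phosphodiesterase), 0.479 for the transcription factor gene Sox21 and 0.536 for Rgs6 (a regulator of G protein signalling). Their mean knockout levels were 7.62, 9.26, 11.8 and 34.2 CPM, against 0.0958, 0.176, 0.634 and 1.61 CPM for wild type. Wild type counts were only 0 to 4 for Syt6, 2 to 5 for Pde11a and 4 to 19 for Sox21. The prior count of 2 therefore weighs on their wild type log2 levels and on the distances. The fitted folds were 27.2 for Hpse and 78.0, 49.8, 18.5 and 20.9 for the others, beside 30.8 for Tnc. A distance over both groups selects genes with a large step between them, so these folds follow from the choice. It does not show that the genes vary with Tnc within a group.

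The lists that follow were also chosen with earlier results of these data known, and genes in them were named partly for their change. Their counts and adjusted p-values carry that selection and are descriptions, not independent support. Relatives of the members moved mostly upward. Of 22 other matricellular genes, 20 were tested, 11 were called higher, 0 lower and 9 were not called. Those called higher were 55% of the tested genes, beside 15.9% of all features tested. The median log2 change was 1.06, beside 0.04 over all features. At an unadjusted p below 0.05 there were 14 higher and 0 lower, beside 3279 higher and 3185 lower of all 14271 features tested. Thbs4, a thrombospondin gene of tendon and muscle, rose 8.08-fold from 0.438 ± 0.121 to 3.68 ± 2.08 CPM (edgeR adjusted p 0.00256). Tnn, the gene of tenascin N, rose 7.56-fold to 3.98 ± 4.34 CPM (0.0397), with knockout library 3 at 6.05 times the other knockout libraries. Smoc2, of the SPARC family, rose 4.93-fold to 20.8 ± 19.2 CPM (0.0367). Without knockout library 3, Tnn was 3.10-fold and Smoc2 2.41-fold higher, and neither was called. The relatives of highest mean CPM had no such weight: Mfge8, whose protein binds integrins and phosphatidylserine, rose 1.81-fold from 179 ± 4.87 to 324 ± 48.5 CPM (0.00156), and Sparcl1 rose 2.55-fold from 61.8 ± 16.7 to 158 ± 21.7 CPM (0.00152). Without knockout library 3 the list had 7 called higher and 1 lower. It had 5 higher and 0 lower without wild type library 2, and 7 higher and 0 lower without wild type library 3.

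The receptors of these proteins were called in both directions, as all features were. Of 25 genes 24 were tested, 6 were called higher (25%) and 5 lower (20.8%), with a median log2 change of 0.31. These shares were not far from the 15.9% and 16.8% of all features tested. Itga8, an integrin subunit that pairs with Itgb1 and binds tenascin C and fibronectin, rose 6.45-fold from 3.37 ± 0.897 to 22.0 ± 5.44 CPM (edgeR adjusted p 0.000228). The collagen receptor subunit gene Itga2 fell 4.45-fold from 27.1 ± 2.72 to 6.38 ± 2.71 CPM (0.00116). The epidermal growth factor receptor gene Egfr, a proposed partner of tenascin C repeats, rose 2.91-fold to 28.4 ± 17.8 CPM (0.0368). It was 1.89-fold higher and not called without knockout library 3. Itgb1, the receptor gene of highest mean CPM over the 6 libraries, fell 1.42-fold from 660 ± 70.9 to 465 ± 28.8 CPM (0.0131). Lrp1, an endocytic receptor that takes up thrombospondins, was not called, at 620 ± 299 CPM in the knockout, against 421 ± 33.9 CPM for wild type.

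Partners of versican in the hyaluronan matrix were mostly higher where called. Of 15 genes 12 were tested, 5 were called higher and 1 lower, with a median log2 change of 0.81. These were 41.7% and 8.33%, beside 15.9% and 16.8% of all features tested. The fibrillin genes Fbn1 and Fbn2, whose microfibrils bind versican, were 2.44-fold and 2.43-fold higher, with Fbn2 going from 218 ± 76.0 to 532 ± 274 CPM (edgeR adjusted p 0.0272). Knockout library 3 was 2.25 times the other knockout libraries for Fbn2, which was 1.72-fold higher and not called without it. Hapln3, a link protein gene, rose 2.35-fold to 2.07 ± 0.0618 CPM (0.0198). None of the 12 was called higher by edgeR without wild type library 2 (5 at an unadjusted p below 0.05), 1 was without wild type library 3, and 3 were without knockout library 3. At the unadjusted threshold 2143 of 14603 features were higher without wild type library 2.

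Among 15 genes of matrix proteases and their inhibitors, 14 were tested, 5 were called higher and 2 lower (median log2 0.54). These were 35.7% and 14.3%, beside 15.9% and 16.8% of all features tested. Mmp14, a membrane-bound protease that cuts fibronectin and tenascin C, rose 3.10-fold from 46.4 ± 14.0 to 144 ± 5.06 CPM (edgeR adjusted p 0.00054), and was alike in the 3 knockout libraries. Adamts1, a versican-cutting protease, rose 2.43-fold to 41.9 ± 20.4 CPM (0.0144), and the inhibitor gene Timp3 fell 2.55-fold to 2.62 ± 1.71 CPM (0.0438). The inhibitor gene Timp2, of high mean CPM, was not called, at 103 ± 23.0 CPM in the knockout, against 133 ± 5.48 CPM for wild type, and was called lower without knockout library 3. The list had 1 called higher and 0 lower without wild type library 2, 1 and 1 without wild type library 3, 3 and 3 without knockout library 3, and 4 and 0 without knockout library 2.

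TGF-beta induces Tgfbi, Ctgf and fibronectin, and 7 of 15 tested genes of its ligands, receptors, latent binding proteins, SMAD proteins and products were called higher and 0 lower, with a median log2 change of 0.51. Of these 7, Tgfbr1, Ltbp1, Ltbp3 and Ltbp4 encode a receptor and binding proteins of the ligand, Smad3 a transducer of the signal, and Smad7 and Skil inhibitors of it. The share called higher was 46.7%, beside 15.9% of all features tested. At an unadjusted p below 0.05 there were 10 higher and 0 lower, beside 3279 higher and 3185 lower of all 14271 features tested. The latent TGF-beta binding protein genes Ltbp3, Ltbp4 and Ltbp1 rose 2.11-fold, 1.83-fold and 1.63-fold (edgeR adjusted p 0.0119, 0.0333 and 0.0168), and Ltbp4 was 1.45-fold higher and not called without knockout library 3. The receptor gene Tgfbr1 rose 1.33-fold from 212 ± 18.7 to 282 ± 14.8 CPM (0.0177). The ligand gene Tgfb2 was not called, at 297 ± 33.3 and 245 ± 7.64 CPM. Without wild type library 2 there was 1 called higher, without wild type library 3 there were 2, and without knockout library 2 there were 4.

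Ctgf and Cyr61 are targets of the coactivators YAP and TAZ. Of 18 genes of these factors and their targets, 17 were tested, 5 were called higher and 1 lower, with a median log2 change of 0.19. These were 29.4% and 5.88%, beside 15.9% and 16.8% of all features tested. Among those called higher were the factor genes Yap1, Wwtr1 (which encodes TAZ) and Tead2. They rose 1.37-fold, 1.43-fold and 1.55-fold (edgeR adjusted p 0.012, 0.0196 and 0.0123), and each was still called without knockout library 3. Tead3 and Tead4 were not called. The coagulation factor gene F3 rose 2.51-fold to 5.55 ± 1.84 CPM (edgeR adjusted p 0.026). It was 2.15-fold higher and not called without knockout library 3. Also in this list, the receptor kinase gene Axl rose 2.40-fold from 31.5 ± 9.20 to 75.7 ± 9.85 CPM (0.00226). Crim1, of the highest mean CPM in the list, fell 1.72-fold from 1493 ± 282 to 866 ± 111 CPM (0.0101). Tead1 was not called, at 300 ± 58.8 and 264 ± 2.22 CPM.  The list had 1 called higher and 1 lower without wild type library 2 or wild type library 3.

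**Figure D5:**
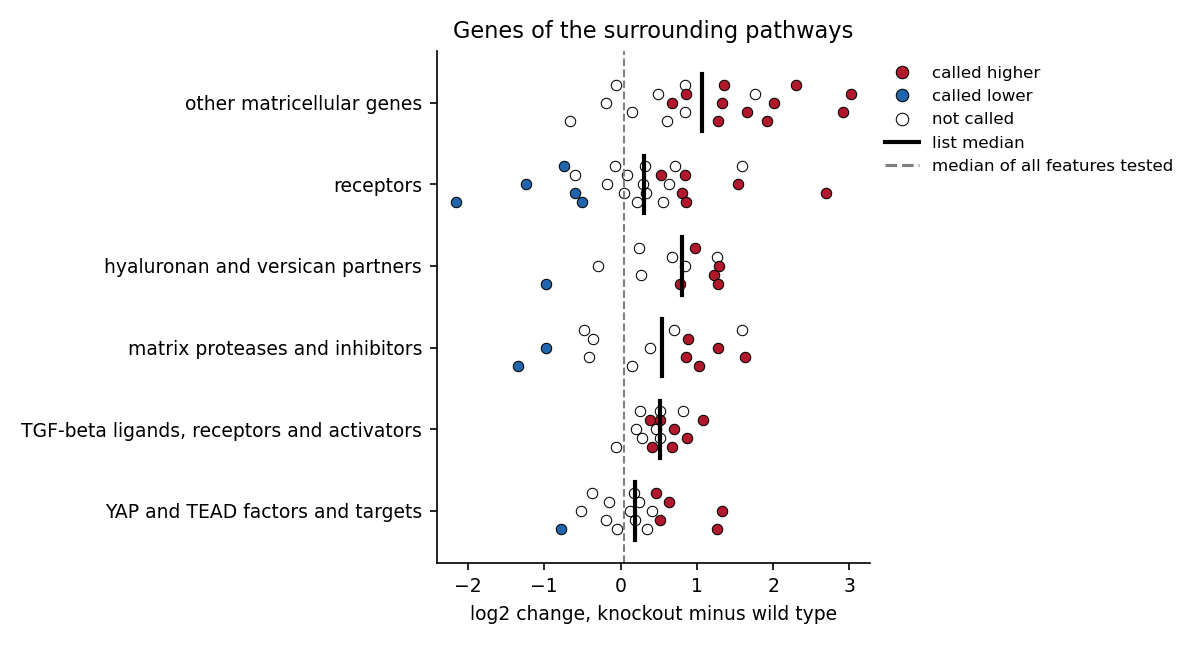
Log2 change (knockout minus wild type) of every tested gene in 6 lists around the members, with red for called higher, blue for called lower and open for not called, bars at the list medians and a dashed line at the median of all features tested (0.04). The other matricellular genes lie mostly to the right (median 1.06), while receptors lie on both sides (median 0.31).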

How the data were processed

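The raw count, CPM and RPKM per feature are the values deposited by the authors, per the file headers. Genome build GRCm38 and edgeR are named in the submitters' processing notes. Aligner, counting program and annotation were not given in the sources used here. Per the labels' protocols, polyadenylated RNA was sequenced as single-end reads of 51 bp with a kit that keeps no strand. The deposited CPM equals the raw count over the library total within 1e-06, except in 26 features, which were left out and hold no member. The RPKM is missing for 11976 features and infinite for 1, none of them a member. Counts of a gene sum all its splice forms.

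The raw counts were fitted in R 4.3.3 with edgeR 4.0.16 (filterByExpr with a minimum count of 10, TMM, quasi-likelihood test, Benjamini-Hochberg over all features tested, threshold 0.05). SE is the log2 change over the root of the quasi-F statistic. The procedure was tested on simulated counts. Levels are TMM-scaled CPM, mean ± SD, n = 3. Log2 CPM for the likeness to Tnc used a prior count of 2. Alternatives used DESeq2 1.42.0, limma 3.58.1, other scalings, other filters and left-out libraries. Coordinates are from GENCODE M21 and promoters from RefSeq GRCm38.p6. The members and lists were chosen with earlier results of these data known. Named genes were the members, Prox1, the 3 called genes of largest change and the 2 of highest mean CPM (not per length) in each pathway list, markers without counts, and the 5 genes nearest to Tnc. Further genes were named in the TGF-beta and YAP lists.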

Additional observations from a re-analysis of the deposited data

How the results depend on the processing

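Counts of calls depended mainly on wild type libraries 2 and 3. The 4659 changed genes became 2267 to 5318 when 1 library was left out, the 6 members called higher became 2 to 7, the 1 called lower became 0 or 1, and the 48 called genes over the 6 pathway lists became 18 to 55. Library totals alone gave 0 members lower and 73 called pathway genes, and turned the log2 change of Sparc to 0.20. Without knockout library 3 and wild type library 1 together, an alternative added after seeing the data, 5334 genes and 56 pathway genes changed, and 6 members were called higher and 1 lower. The 4 separated neighbours in the wild type order stayed within 1.5 times under each alternative run. Over the 10 members and 14 alternatives, 107 of 140 log2 changes kept direction and side of the threshold, 19 lost the call, 13 gained it and 1 turned sign. The cause was not tested.

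Whether the replicate numbers pair the libraries is not settled. Deviations of same-numbered libraries from their group means correlated at -0.0276, 0.254 and 0.111 over genes, and those of different numbers at -0.224 to 0.0878. Libraries 2 and 3 of each group correlated best with their own number, and library 1 of each group did not. Deviations from a mean of 3 libraries are tied to each other, so these values cannot decide it. The fit with the replicate number as a block called 4176 genes, with 6 members higher and 1 lower, where Tgfbi lost its call and Cyr61 gained one. Knockout libraries 2 and 3 are the shallowest, where a count of 3, the limit that a count of 0 allows, is 0.275 and 0.33 CPM, for counting error only.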
